A study of Mus musculus with 31 samples.

Results

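Cardiac fibroblasts kept in a 3D culture were compared between a group labelled 3D-5days and a group labelled 3D. The comparison takes in 6 of the 31 samples of the series, 3 RNA-seq libraries in each group, chosen by their labels alone. All 6 libraries came from heart fibroblasts of C57Bl/6 mice aged 8 to 12 weeks, with no genetic change and no added agent named. The label 3D-5days names a time of 5 days and the label 3D names none, so the difference is one between 2 labelled states. The labels do not give the order and span of the cultures, the material of the 3D setting or the number of mice behind a library, and p-values measure only the spread between libraries, which may be technical. Where the same contrast of labels was needed in flat culture, the groups 2D-5days and 2D, with 3 libraries each, served for it.

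Fibroblasts make and remodel the collagen-rich matrix of the heart. On stiff flat surfaces they build actin stress fibres and switch on smooth muscle type contractile genes, matrix genes and targets of transforming growth factor beta (TGF-beta), a state called activated or myofibroblast-like. Serum response factor acts on contractile genes through the CArG box, and the co-activators YAP and TAZ carry information on cell shape and tension to genes such as Ctgf. Separate stress programmes run beside these: NRF2 turns on glutathione and antioxidant enzymes, and ATF4 turns on amino acid synthesis and transfer RNA charging.

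The libraries were not equally alike, and this touches every result. Gene counts per library ran from 18777061 to 26324009 in 3D and from 9060433 to 11280045 in 3D-5days. Between 3D replicates 1 and 2 the differences of log2 CPM (counts scaled to a fixed library total) over genes had an SD of 0.280, whereas replicate 3 differed from them by 1.06 and 0.966. Replicate 3 of 3D was closer to the mean of the 3 libraries labelled 3D-2D-3D (read as 3D, then 2D, then 3D again), with an SD of 0.627, than to the mean of the other 3D libraries, with an SD of 1.004. Within 3D-5days the SD was 0.413 between replicates 2 and 3, and 0.753 and 0.736 between replicate 1 and these. In a principal component analysis of the 6 libraries the first component, with 47.4% of the variance, set 3D replicate 3 apart, and the second, with 31.9%, separated the groups.

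**Figure D1:**
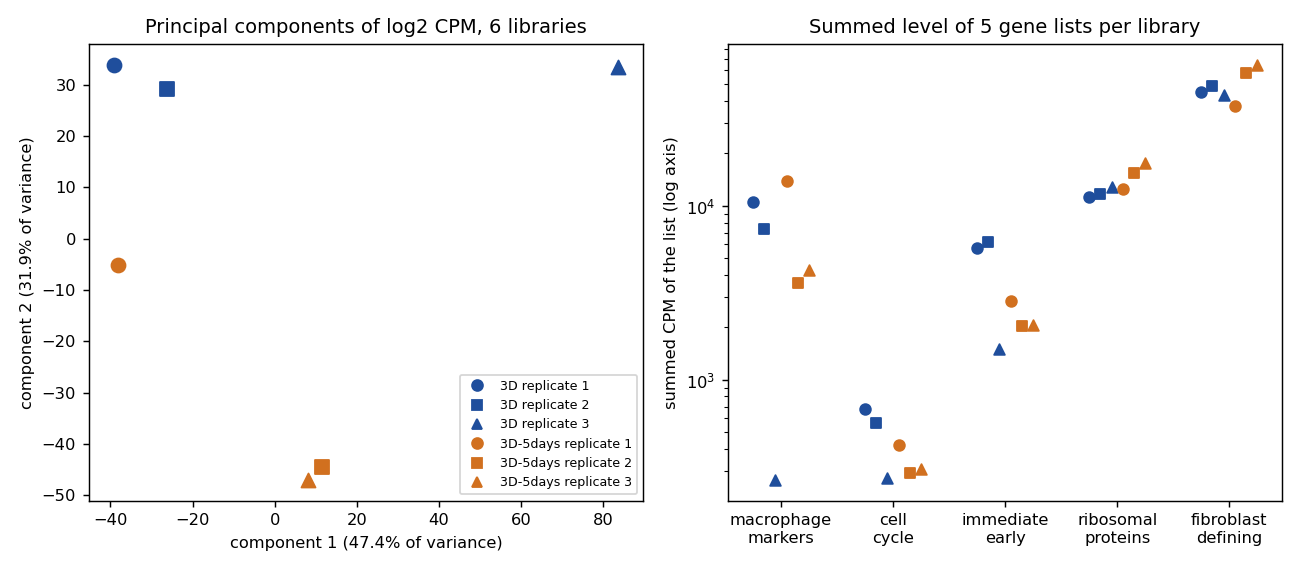
Left, the first 2 principal components of log2 CPM for the 3 libraries of 3D (blue) and of 3D-5days (orange), the replicate given by the symbol; component 1 sets 3D replicate 3 apart and component 2 separates the groups. Right, the summed CPM of 5 gene lists in the same libraries on a log axis; macrophage markers reach 13818 CPM in 3D-5days replicate 1 and 265 CPM in 3D replicate 3.

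Markers of other cell types moved with this split of the libraries. All 23 macrophage markers in the table had counts in every library, and their summed level was 10495, 7345 and 265 CPM in 3D replicates 1 to 3 and 13818, 3574 and 4284 CPM in 3D-5days replicates 1 to 3. Fibroblast-defining genes summed to between 37545 and 64668 CPM, with all 14 present in each library. Summed lymphocyte markers reached at most 1.99 CPM, with Cd3e and Cd3g at 0 in all 6 libraries, and erythroid markers at most 0.334 CPM. Endothelial markers summed to between 429.6 and 521 CPM and overlapped between the groups, but the sums hide a split between libraries. The mean log2 CPM of the 18 endothelial markers was lowest in 3D replicate 3, at 1.12, and next lowest in 3D-5days replicate 1. In the other libraries it lay between 2.68 and 3.10. The median difference of the 17 tested was 0.37 against 3D replicates 1 and 2 and 2.58 against replicate 3 alone. With all 3 libraries of 3D 1 was called lower and 0 higher, with 2 higher without 3D-5days replicate 1. Epicardial and mesothelial markers summed to 86.7, 95.6 and 124 CPM in 3D and to 105, 99.5 and 104 CPM in 3D-5days, but 4 of 12 tested were called lower and 0 higher, with 1 lower without 3D replicate 3 or 3D-5days replicate 2 or 3. These were Upk3b (1.57, 2.29 and 8.33 CPM in 3D), Msln (at most 0.406 CPM), Lrrn4 and Sema3d, and the first 2 were at 0 in every 3D-5days library. The pericyte marker Cspg4 had 8.53, 8.69 and 34.8 CPM in 3D and 2.56, 3.42 and 3.48 CPM in 3D-5days (-2.46 ± 0.52, edgeR adjusted p = 0.00507, and -1.43 without 3D replicate 3) and was the only 1 of 11 pericyte and smooth muscle markers called. Cardiomyocyte markers summed to between 824 and 969 CPM in 3D and between 605 and 641 CPM in 3D-5days. Most of this was Atp2a2, with 756, 762 and 759 CPM in 3D and 570, 586 and 607 CPM in 3D-5days. The mean log2 CPM of the 18 markers overlapped, at -0.74, -0.70 and -0.12 in 3D and -0.65, -0.47 and -0.91 in 3D-5days. Atp2a2 was called lower, Tnni3 higher and the other 9 of 11 were not called. The Tnni3 call was lost without 3D replicate 1 or 2 or 3D-5days replicate 2 or 3. The part of these cell types in the falls of matrix, contractile and signalling genes was not tested. Y-linked genes had 0, 1 and 2498 counts in 3D and 277, 769 and 673 in 3D-5days. Xist, made by female cells, had 15873, 13616 and 8193 counts in 3D and 3962, 3372 and 1572 in 3D-5days. In flat culture Y-linked genes had 7, 3 and 2488 counts in 2D and 346, 478 and 572 in 2D-5days. The donors' sex was thus not the same in all libraries, and its part in the results was not tested. In bulk RNA, fewer cells of a type and less RNA per cell cannot be told apart.

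For these reasons each gene was compared with all 3 libraries of 3D and also with replicates 1 and 2 alone and with replicate 3 alone. A gene is called changed at an adjusted p under 0.05 by edgeR's quasi-likelihood test, and "against both sets" means that it was called in all of these comparisons with the same sign. Replicate 3 alone is 1 library, so that comparison holds no spread within 3D and takes it from the other groups. Both sets are compared with the same 3D-5days libraries, so they are no independent checks. Differences are given as log2 values of 3D-5days minus 3D, each with its standard error (SE).

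Of 14036 genes tested, 1460 (10.4%) differed between the groups, 634 (4.52%) higher and 826 (5.88%) lower in 3D-5days, and 473 of them by at least 2-fold. The median difference over all genes was -0.02. The libraries of the groups did not overlap for 3491 genes (24.9%) and for 1308 (89.6%) of those called. Lack of overlap was also part of the rule that named some genes. Counts of list members called with all 3 libraries of 3D stand against the shares of 4.52% higher and 5.88% lower. Scaling by library totals alone left 420 genes higher and 1093 lower, so the balance of rises and falls depends on the scaling. Against 3D replicates 1 and 2 alone 709 genes (5.05%) were higher and 751 (5.35%) lower, and against replicate 3 alone 927 (6.6%) were higher and 1116 (7.95%) lower. The genes called against both sets numbered 433 (3.08%), 181 higher (1.29%) and 252 lower (1.8%), and 18 genes were called in opposite directions against the 2 sets. The shared estimate of spread from all 29 libraries carries most calls. With the 6 libraries fitted by themselves 64 genes (0.456%) passed, 26 higher and 38 lower, with 2339 genes at an unadjusted p under 0.05, and 52 of the 64 were among those called against both sets.

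Among these 52 genes were Cthrc1, Fmod, Tgfb3, Smad6 and Dkk3 on the falling side, which code for secreted, matrix and signalling proteins. On the rising side they included Gsta4, Gclm and Srxn1 of redox defence, the glucose transporter Slc2a1 and the transfer RNA synthetase Cars. Cthrc1, a secreted protein of collagen-producing cells that marks activated fibroblasts, stood at 36.9, 42.9 and 34.2 CPM in 3D and at 5.23, 5.01 and 5.07 CPM in 3D-5days. All 3 libraries of 3D-5days lay within a narrow band, and the difference was -2.90 ± 0.65 (SE; adjusted p = 0.00749). Gsta4, a glutathione transferase that removes lipid peroxidation products, rose from 30.8, 33.3 and 30.8 CPM in 3D to 140.4, 128 and 133 CPM in 3D-5days. The groups did not overlap and the difference was 2.08 ± 0.37 (adjusted p = 0.00112). Both genes also passed in the fit of the 6 libraries alone, each with an adjusted p of 0.0015. Cthrc1 lies on chr15:39076932-39087121 and Gsta4 on chr9:78191966-78209349 (RefSeq positions, mm10).

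**Figure D2:**
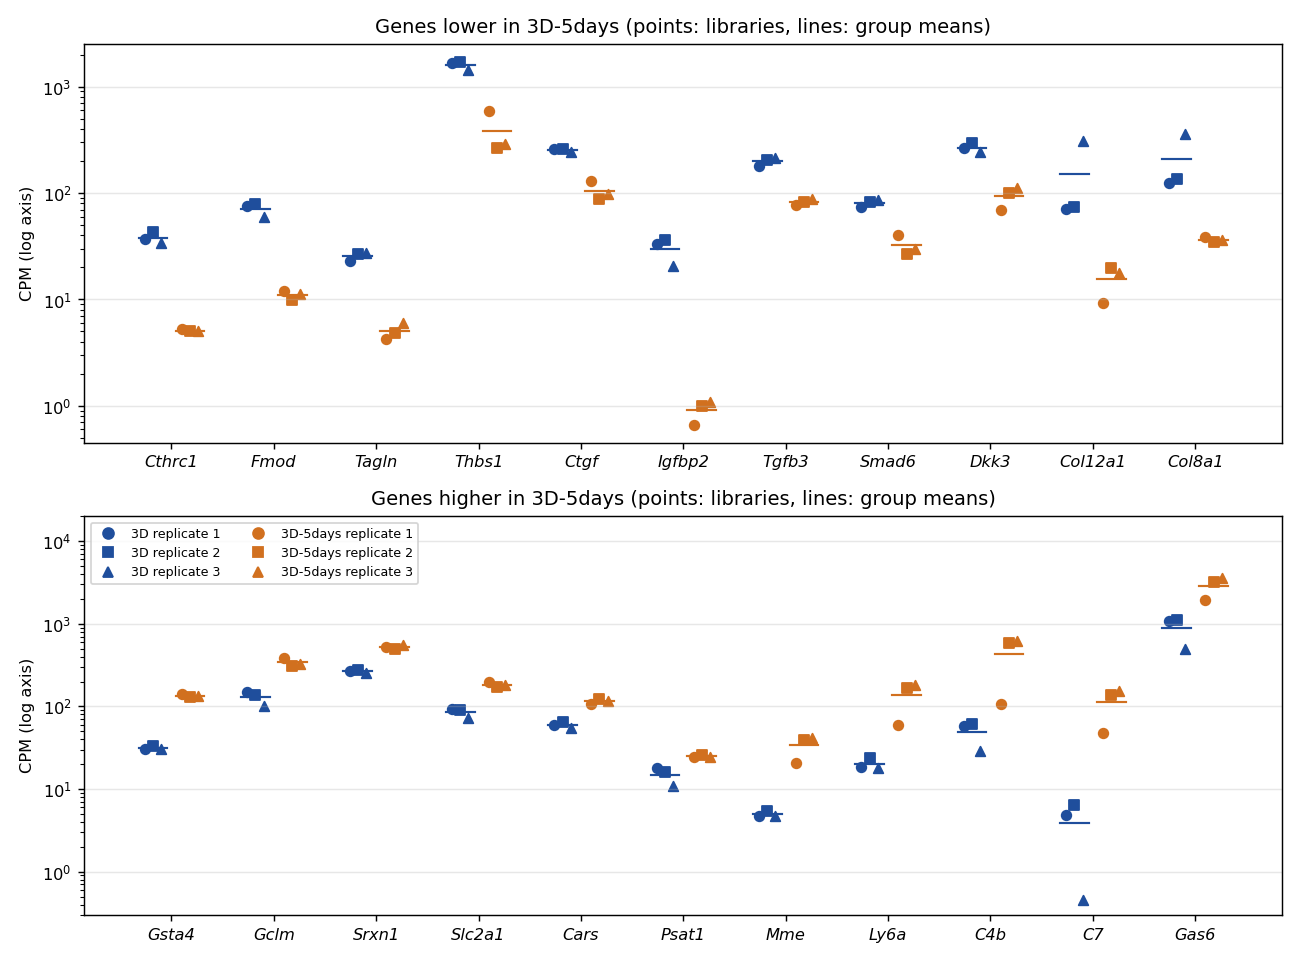
CPM on a log axis of 11 genes lower (top) and 11 genes higher (bottom) in 3D-5days, with each library as a point (blue for 3D, orange for 3D-5days, the replicate by symbol) and group means as lines. The groups do not overlap for any of these genes, and lack of overlap was part of the rule that named some of them. 3D replicate 3 stands apart from the other 3D libraries for Col12a1, Col8a1 and C7, and 3D-5days replicate 1 from its group for Ly6a, C4b and C7.

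Contractile and stress fibre genes were lower or not called. Of 30 members tested 9 fell and 0 rose, against 5.88% of all genes falling, with a list median of -0.37. Tagln, which codes for the actin-binding protein transgelin, stood at 23.1, 26.7 and 27.5 CPM in 3D and at 4.23, 4.84 and 6.07 CPM in 3D-5days, a difference of -2.35 ± 0.36 (adjusted p = 0.000287). Every 3D-5days library lay far below every 3D library. Acta2, the smooth muscle actin used as the standard mark of myofibroblasts, had 50.4, 60.5 and 49.5 CPM in 3D and 13.1, 19.9 and 24.4 CPM in 3D-5days. Its difference was -1.48 ± 0.41 (adjusted p = 0.0234), and the call was lost when 3D replicate 2 or 3D-5days replicate 1 or 2 was left out (adjusted p up to 0.0824).

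Fhl2, a LIM-domain protein of the cytoskeleton and nucleus, fell from 22.1, 26.8 and 24.5 CPM to 8.12, 10.2 and 12.1 CPM (-1.27 ± 0.24, adjusted p = 0.00215). Myl9, a regulatory myosin light chain, had 6.81, 8.07 and 4.65 CPM in 3D and 3.23, 1.75 and 2.09 CPM in 3D-5days (-1.48 ± 0.45, adjusted p = 0.0407). Vcl, the focal adhesion protein vinculin, which lies outside the rule for named genes and was chosen for its promoter after its values were seen, had 155, 153 and 158 CPM in 3D and 109, 73.0 and 72.8 CPM in 3D-5days (-0.87 ± 0.24, adjusted p = 0.0218). None of these genes overlapped between the groups. The Fhl2 call held against both sets, while Myl9 and Vcl were not called against 3D replicate 3 alone (adjusted p = 0.287 and 0.0673) and lost their calls without 3D-5days replicate 2 or 3, and Myl9 also without 3D replicate 1 or 2. Members called against both sets were Csrp1, Fhl2, Myh10 and Tagln, 4 of 30, and without 3D-5days replicate 2 the list had 4 falls, without 3D replicate 2 or 3D-5days replicate 3 6.

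Many contractile genes carry CArG boxes, and promoter windows from 250 bases before to 50 bases after each RefSeq start (GRCm38.p6) were searched for that motif on both strands. It occurred in a window of 488 of 27025 genes (1.81%), in 6 of the 27 contractile genes with a window, and in 3 of the 8 of these that were called lower. The 3 genes are shown because they carry the motif and fell, with the CArG box in capitals and the stretch ending before the start.
Fhl2, chr1:43196803-43196902, minus strand: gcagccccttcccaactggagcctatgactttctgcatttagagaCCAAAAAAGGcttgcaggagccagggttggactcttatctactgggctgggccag
Fhl2, second start, chr1:43163962-43164037, minus strand: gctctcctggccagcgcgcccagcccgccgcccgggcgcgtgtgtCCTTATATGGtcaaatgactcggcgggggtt
Myl9, chr2:156775258-156775357, plus strand: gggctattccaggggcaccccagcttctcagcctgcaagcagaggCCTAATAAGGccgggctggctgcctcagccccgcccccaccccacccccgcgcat
Vcl, chr14:20929148-20929225, plus strand: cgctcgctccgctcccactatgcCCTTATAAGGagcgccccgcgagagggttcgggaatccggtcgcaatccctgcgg
The motif began 96 and 31 bases before the 2 starts of Fhl2, 161 bases before that of Myl9 and 227 bases before that of Vcl. A match is a run of letters and shows no binding, and 3 list members with a match were not called.

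Among targets of YAP and TAZ 3 of 22 members were lower (13.6%, against 5.88% of all genes) and 0 higher, with a median of -0.36. The count of falls was 6 without 3D-5days replicate 1, 1 without replicate 2 and 2 without replicate 3. Ctgf, a matricellular growth factor modulator induced by TGF-beta and by YAP, had 262, 262 and 245 CPM in 3D and 130.3, 88.2 and 97.0 CPM in 3D-5days. The groups were well apart, with a difference of -1.29 ± 0.30 (adjusted p = 0.00883) that was no longer called without 3D-5days replicate 2 (adjusted p = 0.0552). Axl, a receptor tyrosine kinase, fell from between 424 and 525 CPM to between 278 and 337 CPM (-0.58 ± 0.12, adjusted p = 0.00431). The letters GGAATG, a core of sites of the YAP partner TEAD, were found in a window of 16.6% of all genes and in 8 of 16 list genes with a window. Axl, which carries them, was the only member called lower that had a window. Ctgf had none, so its promoter was not searched.

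Thbs1, a glycoprotein that can release latent TGF-beta, had 1667, 1700.0 and 1420.3 CPM in 3D and 596, 262 and 287 CPM in 3D-5days (-2.06 ± 0.27, adjusted p = 6.88e-05). Its 3D-5days replicate 1 was the highest of its group and still below every 3D library.

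In the TGF-beta and bone morphogenetic protein (BMP) list 6 of 30 members fell (20%, against 5.88% of all genes), or 3 without 3D-5days replicate 2 or 3. In the same list 2 rose (6.67%, against 4.52%), or 1 without 3D replicate 1 or 3 or 3D-5days replicate 2 or 3. The ligand Tgfb3 had 181, 203 and 214 CPM in 3D and 77.7, 82.6 and 88.4 CPM in 3D-5days (-1.27 ± 0.15, adjusted p = 2.52e-05). The inhibitory Smad6, itself a target of BMP signalling, had 73.3, 82.0 and 86.2 CPM in 3D and 40.1, 26.7 and 30.0 CPM in 3D-5days (-1.32 ± 0.20, adjusted p = 0.000231). Neither gene overlapped between groups, and both passed in the fit of 6 libraries, with adjusted p = 0.0124 and 0.042. Smad7, the inhibitory Smad of the TGF-beta branch, differed by -0.94 ± 0.23 (adjusted p = 0.0124), and Id1, a BMP-induced inhibitor of transcription factors, by -1.43 ± 0.42 (adjusted p = 0.0328). Neither was called against 3D replicate 3 alone (adjusted p = 0.137 and 0.441), and both calls were lost without 3D-5days replicate 2 or 3, that of Id1 also without 3D replicate 1 or 2. The members that rose were the receptor Tgfbr2 and the activin antagonist Fst, the former against both sets.

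Collagen chains fell in part. Of 22 chains 9 were lower and 0 higher, with a median of -0.50, and 7 of the 9 were lower against both sets: Col4a1, Col4a2, Col4a5, Col7a1, Col8a1, Col11a1 and Col12a1. These are chains of basement membrane, anchoring fibril, network and fibril-associated or minor fibrillar collagens. Col8a1, a network collagen raised in activated fibroblasts, had 124, 136 and 361 CPM in 3D and 38.8, 34.5 and 35.9 CPM in 3D-5days (-2.51 ± 0.27, adjusted p = 9.32e-06). Col12a1, a fibril-associated collagen, had 70.8, 73.2 and 307 CPM in 3D and 9.23, 19.8 and 17.7 CPM in 3D-5days (-3.27 ± 0.55, adjusted p = 0.000745). For both genes 3D replicate 3 was far above the other 3D libraries. Against replicates 1 and 2 alone the differences were -1.83 and -2.19, and against replicate 3 alone -3.32 and -4.30. Col11a1, a minor fibrillar chain, followed the same pattern, with -2.49 ± 0.53 (adjusted p = 0.00533) and -1.48 without 3D replicate 3. Col4a5, a basement membrane chain, had 379, 415 and 707 CPM in 3D and 188, 165 and 184 CPM in 3D-5days (-1.49 ± 0.19, adjusted p = 7.77e-05).

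The major fibrillar chains did not share the fall. Col1a1 stood at 12876, 14298 and 9472 CPM in 3D and at 8130.5, 11367 and 12884 CPM in 3D-5days, overlapping groups with a difference of -0.18 ± 0.33 (adjusted p = 0.78), which was 0.19 against 3D replicate 3 alone. Col3a1 had 8837, 9929.5 and 4004 CPM in 3D and 11187, 23160.2 and 27314 CPM in 3D-5days. It was higher in each 3D-5days library than in any 3D library, yet the difference of 1.44 ± 0.62 did not pass (adjusted p = 0.145).

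Among matrix glycoproteins and proteoglycans 9 of 43 members fell (20.9%, against 5.88% of all genes) and 1 rose (2.33%, against 4.52%), with a median of -0.22. Small leucine-rich proteoglycans, which bind collagen fibrils and growth factors, were among the falls. Fmod, fibromodulin, had 76.0, 78.6 and 58.9 CPM in 3D and 12.0, 9.85 and 11.3 CPM in 3D-5days, a difference of -2.69 ± 0.33 (adjusted p = 4.24e-05, and 0.00381 in the fit of 6 libraries). Prelp had 143, 153 and 269 CPM in 3D and 58.8, 48.5 and 54.99 CPM in 3D-5days (-1.80 ± 0.31, adjusted p = 0.000834). Ogn, osteoglycin, differed by -2.14 ± 0.60 (adjusted p = 0.0263), a call lost when any library other than 3D replicate 3 was left out. Dcn, decorin, went the other way in level, with 1067, 1209 and 292 CPM in 3D and 1233, 2033 and 2249 CPM in 3D-5days, but was not called (1.10 ± 0.80, adjusted p = 0.41). The member that rose was Tgfbi, and without 3D replicate 1 or 3 or 3D-5days replicate 2 or 3 no member rose. Members lower against both sets were Thbs1, Ltbp2, Fmod, Prelp and Cthrc1, and the list had 5 falls without 3D-5days replicate 2 and 6 without replicate 3.

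Activated fibroblast markers, a list that shares Acta2, Tagln, Cthrc1, Col8a1 and Col12a1 with the lists above, had 7 of 19 members lower and 0 higher, with a median of -0.91. The other members that fell were Ltbp2 and Scx, and without 3D-5days replicate 2 4 members fell. Resting fibroblast markers had 1 of 29 higher (3.45%, against 4.52% of all genes) and 1 lower (3.45%, against 5.88%). The list median was 0.15, and 4 were higher without 3D-5days replicate 1. Ly6a, the surface protein Sca-1 of resting and progenitor-type fibroblasts, was the one that rose, from 18.5, 23.4 and 17.8 CPM to 59.9, 167 and 181 CPM (2.78 ± 0.36, adjusted p = 8.01e-05). Its replicate 1 of 3D-5days lay well below the other libraries of the group and well above 3D. The marker that fell was Abca8a, from 46.9, 52.4 and 25.9 CPM to 21.7, 15.9 and 16.8 CPM (-1.20 ± 0.27, edgeR adjusted p = 0.00703). Its groups did not overlap, and the difference was -0.52 against 3D replicate 3 alone. Tcf21, a transcription factor of cardiac fibroblast identity, had 46.8, 51.9 and 92.2 CPM in 3D and 28.8, 35.5 and 37.1 CPM in 3D-5days and was not called (-0.91 ± 0.32, adjusted p = 0.0701). Pdgfra, the receptor that defines resident fibroblasts, overlapped between groups (-0.30 ± 0.20, adjusted p = 0.366).

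Of 33 matrix proteases and their inhibitors 3 were higher (9.09%, against 4.52% of all genes) and 3 lower (9.09%, against 5.88%). Without 3D-5days replicate 1 5 were higher, and without 3D replicate 2 or 3D-5days replicate 2 or 3 1 was lower. Htra1, a secreted serine protease that cuts matrix proteins, had 70.1, 80.4 and 144 CPM in 3D and 203, 251 and 287 CPM in 3D-5days (1.33 ± 0.20, adjusted p = 0.000215). Adamts5, an aggrecan- and versican-cleaving protease, had 80.7, 89.2 and 55.8 CPM in 3D and 119, 240.3 and 246 CPM in 3D-5days (1.42 ± 0.32, adjusted p = 0.00772). Both rose against both sets. Mmp2, a gelatinase, was higher in every 3D-5days library, at 5879 to 7220.0 CPM against 2376 to 4613 CPM (0.84 ± 0.23, adjusted p = 0.0229), a call lost without 3D replicate 3 or without 3D-5days replicate 2 or 3.

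Integrins and focal adhesion genes had 5 of 27 members lower (18.5%, against 5.88% of all genes) and 0 higher. There were 8 lower without 3D-5days replicate 1 and 3 without 3D replicate 3 or 3D-5days replicate 2 or 3. Itgb5, the integrin beta 5 chain that pairs with alpha V in vitronectin and latent TGF-beta binding, had 1194, 1311 and 1528 CPM in 3D and 715, 704 and 826 CPM in 3D-5days (-0.84 ± 0.18, adjusted p = 0.00464). Tns1, a tensin that links integrins to actin, had 428, 435 and 703 CPM in 3D and 252, 209 and 199 CPM in 3D-5days (-1.25 ± 0.27, adjusted p = 0.00598). Both were lower against both sets, as was Lims1. Piezo2, a mechanically gated ion channel, had 52.1, 55.4 and 63.1 CPM in 3D and 11.7, 7.68 and 11.8 CPM in 3D-5days, a gap of -2.46 ± 0.28 (adjusted p = 2.15e-05) with an adjusted p of 0.00883 in the fit of 6 libraries.

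Single members of other signalling families fell clearly. Igfbp2, which binds insulin-like growth factors, went from 33.0, 36.3 and 20.7 CPM to 0.667, 1.002 and 1.09 CPM, a difference of -4.99 ± 0.79 (adjusted p = 0.00046, and 0.00381 in the fit of 6 libraries). Its levels were among the lowest given here in 3D-5days. In the list of insulin-like growth factor and binding proteins it was the one of 13 members that fell, and Htra1, listed there too, the one that rose. Each makes 7.69% of the list, against 5.88% of all genes lower and 4.52% higher.

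Dkk3, a secreted member of the Dickkopf family, had 264, 292 and 245 CPM in 3D and 68.8, 100.5 and 111 CPM in 3D-5days (-1.52 ± 0.32, adjusted p = 0.00481). Wnt11, a ligand of non-canonical Wnt signalling, was low throughout, at 2.95, 3.06 and 4.96 CPM against 0.222, 0.751 and 0.696 CPM (-2.67 ± 0.56, adjusted p = 0.00438). Fzd7, a Wnt receptor, differed by -0.75 ± 0.19 (adjusted p = 0.0141) and lost its call without 3D-5days replicate 2 or 3. These were the 3 falls among 26 Wnt genes (11.5%, against 5.88% of all genes), with 0 rises, and each was called against both sets.

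Heyl, a Notch target, had 96.3, 104 and 132 CPM in 3D and 15.5, 30.6 and 30.3 CPM in 3D-5days (-2.12 ± 0.52, adjusted p = 0.0124). Of 15 Notch pathway genes 2 were called lower (13.3%, against 5.88% of all genes), Heyl and Hey2, another Notch target. Hey2 was at most 0.43 CPM in 3D and 0 in 3D-5days and lost its call without any 1 of the 6 libraries (adjusted p up to 0.144). Hspb7, a small heat shock protein of heart and muscle, had 34.8, 41.1 and 118 CPM in 3D and 4.34, 5.51 and 4.28 CPM in 3D-5days (-3.77 ± 0.49, adjusted p = 7.56e-05). Lrrn2, a leucine-rich repeat membrane protein, fell from between 21.1 and 28.6 CPM to between 4.004 and 6.07 CPM (-2.26 ± 0.31, adjusted p = 0.000123). Sema5a, a semaphorin, differed by -2.76 ± 0.58 (adjusted p = 0.00472), of which -1.40 remained without 3D replicate 3.

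The rises included enzymes of redox defence. Of 25 NRF2 targets and antioxidant genes 7 rose, against 4.52% of all genes, and 0 fell, with a median of 0.84. Those that rose were Gsta4, Gclm, Srxn1, Gstm1, Gstm2, Gclc and Txnrd1. Gclm, the modifier subunit of the enzyme that limits glutathione synthesis, had 148, 136 and 102 CPM in 3D and 390.0, 311 and 327 CPM in 3D-5days (1.41 ± 0.19, adjusted p = 9.12e-05). Srxn1, which repairs oxidised peroxiredoxins, had 266, 273 and 254 CPM in 3D and 529, 493 and 552 CPM in 3D-5days (0.99 ± 0.16, adjusted p = 0.000477). Gstm2, another glutathione transferase, had 59.4, 64.9 and 77.3 CPM in 3D and 109.8, 158 and 172 CPM in 3D-5days (1.13 ± 0.18, adjusted p = 0.000347). Gsta4, Gclm, Srxn1 and Gstm2 rose against both sets, and the first 3 of these also in the fit of 6 libraries. Near-identical copies exist in the glutathione transferase family, and how the authors' counting split reads among them is not given. Akr1c14, an aldo-keto reductase outside the list, had 5.18, 5.44 and 4.96 CPM in 3D and 21.2, 17.7 and 17.7 CPM in 3D-5days (1.86 ± 0.23, adjusted p = 3.61e-05).

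In the list of unfolded protein and integrated stress genes 6 of 32 rose, against 4.52% of all genes, and 2 fell, against 5.88% (median 0.23). The rises were Atf4, Atf5, Asns, Psat1, Shmt2 and Mthfd2, while the endoplasmic reticulum members Canx and Dnajb9 fell, calls that were both lost without 3D replicate 1 or 2 or 3D-5days replicate 2 or 3. Atf4, the transcription factor of this response, had 203, 193 and 98.0 CPM in 3D and 274, 329.7 and 335 CPM in 3D-5days (0.93 ± 0.21, adjusted p = 0.00652). Atf5, its relative, differed by 1.18 ± 0.28 (adjusted p = 0.00967), a call lost without 3D-5days replicate 3 (adjusted p = 0.0561). Psat1, of serine synthesis, had 17.8, 16.1 and 11.0 CPM in 3D and 24.7, 25.7 and 24.7 CPM in 3D-5days (0.75 ± 0.18, adjusted p = 0.0101). Mthfd2, a mitochondrial folate enzyme, had 22.6, 22.7 and 7.01 CPM in 3D and 46.6, 42.8 and 46.9 CPM in 3D-5days (1.39 ± 0.37, adjusted p = 0.0184). Replicate 3 of 3D was the lowest library for Atf4, Atf5, Psat1 and Mthfd2, and without it, or without 3D-5days replicate 3, the Mthfd2 call was lost. Asns, the asparagine synthetase, differed by 0.99 ± 0.32 (adjusted p = 0.0483), and its call was lost when any library other than 3D replicate 2 was left out (adjusted p up to 0.165). The list had 3 rises without 3D-5days replicate 3 and 4 without 3D replicate 3.

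Cytosolic transfer RNA synthetases, a list added after values of single members had been seen, had 8 of 20 higher and 1 lower, with a median of 0.44. Cars, the cysteine enzyme, had 58.8, 63.9 and 54.7 CPM in 3D and 106, 122 and 117 CPM in 3D-5days (0.96 ± 0.20, adjusted p = 0.00395), and passed in the fit of 6 libraries (adjusted p = 0.0362). Mars, the methionine enzyme, had 47.9, 50.7 and 45.8 CPM in 3D and 68.4, 86.6 and 94.0 CPM in 3D-5days (0.79 ± 0.14, adjusted p = 0.00109). Of the list 5 rose against both sets, as many as without 3D-5days replicate 3, and Dars was the member that fell, a call lost without 3D replicate 1 or 2 or 3D-5days replicate 2 or 3.

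Glycolysis and hypoxia genes had 8 of 27 members higher (29.6%, against 4.52% of all genes), 0 lower and a median of 0.54. Slc2a1, the main glucose transporter of fibroblasts, had 92.1, 89.6 and 73.1 CPM in 3D and 196, 174 and 182 CPM in 3D-5days (1.11 ± 0.28, adjusted p = 0.0148). Car12, a membrane carbonic anhydrase, had 1.32, 1.91 and 1.25 CPM in 3D and 3.56, 5.59 and 4.38 CPM in 3D-5days (1.60 ± 0.28, adjusted p = 0.000889). These 2, with Aldoa and Pkm, rose against both sets. Pfkl, a phosphofructokinase, differed by 1.42 ± 0.41 (adjusted p = 0.0294), but its call was lost when any library other than 3D-5days replicate 1 was left out. Without 3D-5days replicate 3 only 2 members of the list remained called higher.

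The pentose phosphate pathway supplies NADPH to the antioxidant enzymes. In a list of 7 of its genes that was also added after values were seen, 3 rose (42.9%, against 4.52% of all genes) and 0 fell. Pgd had 380.4, 342 and 252 CPM in 3D and 577, 574 and 611 CPM in 3D-5days (0.86 ± 0.14, adjusted p = 0.000564). Tkt differed by 0.51 ± 0.08 (adjusted p = 0.000666) and Taldo1 by 0.54 ± 0.12 (adjusted p = 0.00637). All 3 rose against both sets, by less than 2-fold each. In lipid metabolism Srebf2, a transcription factor of cholesterol synthesis, had 81.3, 69.9 and 77.9 CPM in 3D and 131, 147 and 152 CPM in 3D-5days (0.91 ± 0.15, adjusted p = 0.000745). Of 26 cholesterol genes 2 rose (7.69%, against 4.52% of all genes), Srebf2 among them. Hsd17b7 fell by 1.34 on the log2 scale, or by 0.58 without 3D replicate 3, and its call was lost without that library or 3D-5days replicate 2 or 3, which left 0 falls in the list.

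Several secreted and surface proteins rose. C7, a terminal complement component, had 4.88, 6.35 and 0.451 CPM in 3D and 47.0, 138 and 152 CPM in 3D-5days (4.87 ± 0.71, adjusted p = 0.000221). C4b, an early complement component, had 57.9, 61.8 and 28.5 CPM in 3D and 107, 586 and 609.9 CPM in 3D-5days (3.14 ± 0.62, adjusted p = 0.0028). Abi3bp, a matrix protein, had 38.3, 38.0 and 2.43 CPM in 3D and 128, 366 and 384 CPM in 3D-5days (3.49 ± 0.71, adjusted p = 0.00383). In all of these 3D-5days replicate 1 was the lowest of its group and above every 3D library, and 3D replicate 3 the lowest of all. Mme, the surface peptidase neprilysin, varied less in 3D, with 4.77, 5.44 and 4.75 CPM against 20.6, 39.2 and 41.2 CPM in 3D-5days (2.75 ± 0.33, adjusted p = 3.59e-05, and 0.0224 in the fit of 6 libraries).

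Further rises of this pattern were Gas6, the ligand of Axl, Cxcl12, a chemokine that holds blood-forming cells, and the peptide hormone Apln. Gas6 had 1073, 1122 and 492 CPM in 3D and 1918, 3188 and 3542 CPM in 3D-5days (1.69 ± 0.35, adjusted p = 0.00397), while its receptor Axl fell. Cxcl12 had 358, 399.5 and 226 CPM in 3D and 507, 1186 and 1271 CPM in 3D-5days (1.59 ± 0.29, adjusted p = 0.00145). Apln was low, at 5.38, 4.82 and 1.94 CPM in 3D and 8.79, 26.3 and 31.7 CPM in 3D-5days (2.47 ± 0.56, adjusted p = 0.00805). All 3 rose against both sets, and the fit of 6 libraries passed none of them (adjusted p from 0.124 to 0.147).

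Nfasc, a cell adhesion molecule, rose from between 2.53 and 6.40 CPM to between 10.8 and 40.9 CPM (2.78 ± 0.43, adjusted p = 0.000291). Scg2, a secretory granule protein, differed by 2.34 ± 0.47 (adjusted p = 0.00367), with 3D replicate 3 the highest of its group at 11.5 CPM, and by 1.34 against that library alone (adjusted p = 0.0969). Csf2rb, the shared beta chain of cytokine receptors of myeloid cells, had 108, 93.9 and 18.8 CPM in 3D and 213, 572 and 513 CPM in 3D-5days (2.56 ± 0.60, adjusted p = 0.00942). The macrophage sums given above were lowest in the same 3D library, but in 3D-5days they were highest in replicate 1, where Csf2rb was lowest of its group, and the part of macrophage RNA in this rise was not tested.

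Ribosomal protein genes rose in number but by little. Of 32 tested 20 were higher and 0 lower, with a median of 0.40, and their summed level was 11292, 11749 and 12825 CPM in 3D and 12521, 15453 and 17593 CPM in 3D-5days. Replicate 1 of 3D-5days overlapped with 3D and the other 2 libraries stood above. Rpl32 differed by 0.47 ± 0.09 (adjusted p = 0.00171), and Rps9 by 0.49 ± 0.11 (adjusted p = 0.00669), a call that was lost without 3D-5days replicate 3 (adjusted p = 0.0641). Against 3D replicate 3 alone 2 members were called, without 3D-5days replicate 3 also 2, without 3D replicate 1 11, without 3D replicate 2 13, without 3D-5days replicate 2 11, and without 3D-5days replicate 1 29. Many ribosomal protein genes have near-identical pseudogenes, with which reads may be shared.

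**Figure D3:**
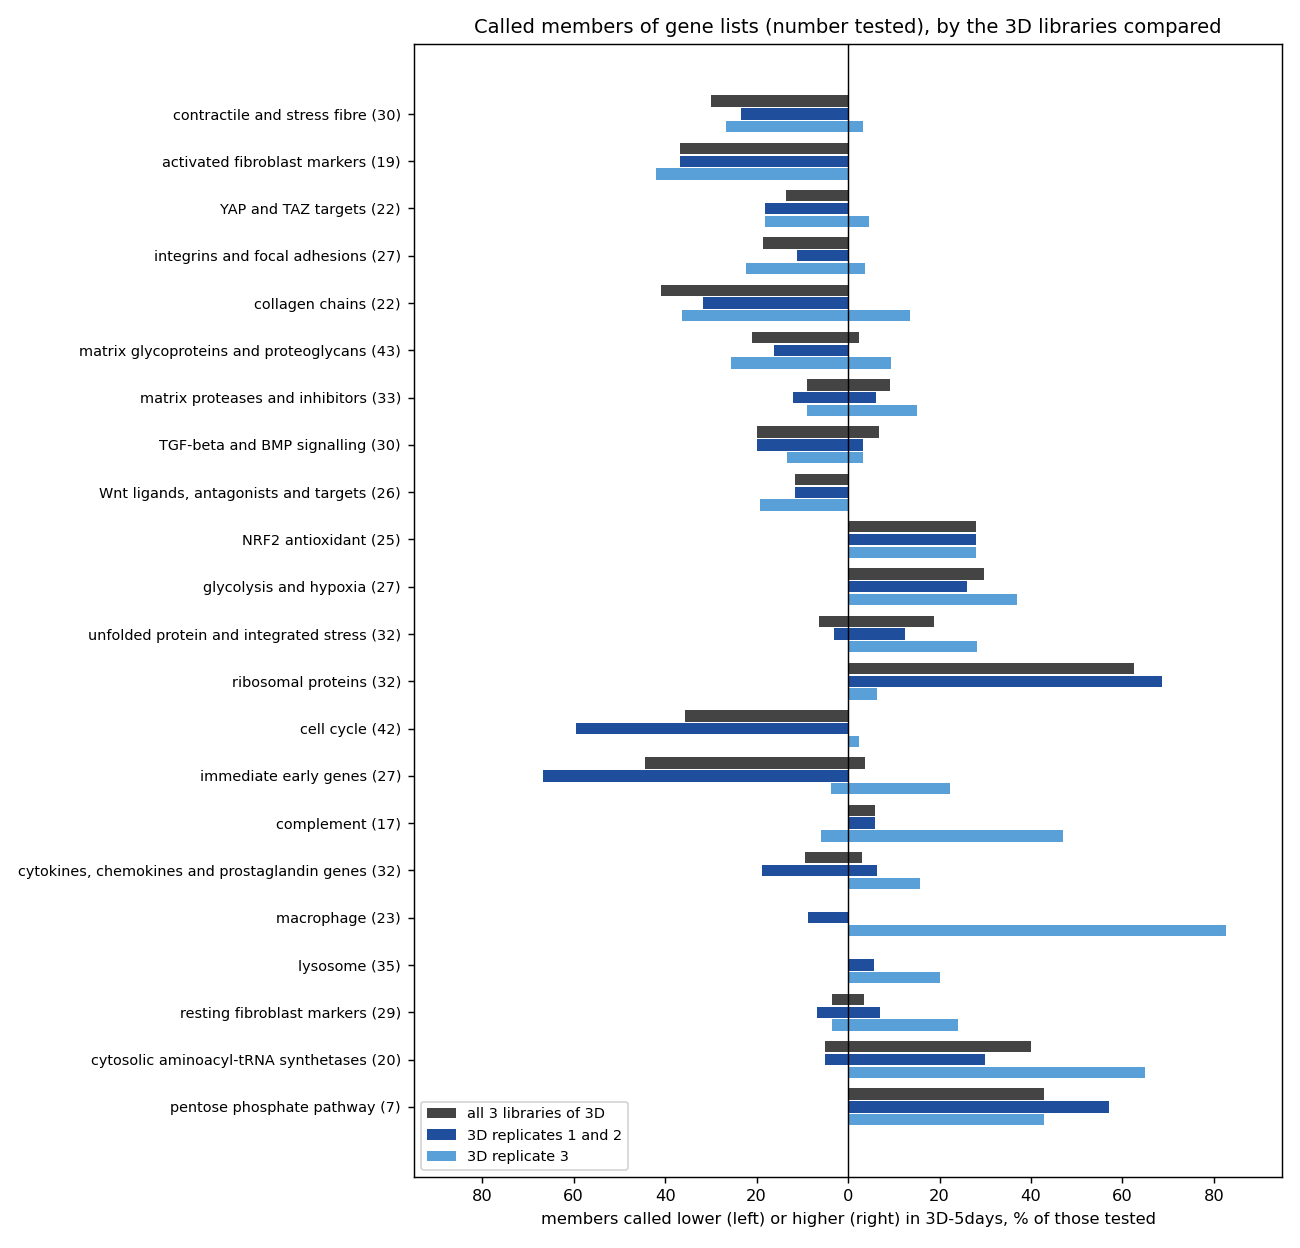
Share of the tested members of each gene list called lower (left of 0) or higher (right of 0) in 3D-5days, in %, when it is compared with all 3 libraries of 3D (grey), with replicates 1 and 2 (dark blue) or with replicate 3 (light blue). Contractile, collagen, antioxidant and glycolysis lists keep their main direction, while cell cycle, immediate early, complement, cytokine and macrophage lists depend on the 3D libraries used.

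Cell cycle genes show how far some lists depend on the 3D libraries taken. With all 3 libraries 15 of 42 fell (35.7%, against 5.88% of all genes) and 0 rose. Against replicates 1 and 2 alone 25 fell, and against replicate 3 alone 0 fell and 1 rose, so that 0 were called against both sets. Mki67, the proliferation antigen Ki-67, had 42.0, 29.6 and 2.01 CPM in 3D and 8.79, 1.002 and 2.59 CPM in 3D-5days. The difference was -2.62 ± 0.80 (adjusted p = 0.0398), with -3.17 against replicates 1 and 2 and 0.96 against replicate 3, and the call was lost when any library other than 3D replicate 3 or 3D-5days replicate 1 was left out. Top2a, the topoisomerase of dividing cells, had 28.5, 20.2 and 3.82 CPM in 3D and 4.11, 1.75 and 2.59 CPM in 3D-5days (-2.65 ± 0.57, adjusted p = 0.00545), and -0.48 against replicate 3 alone (adjusted p = 0.641). Without 3D replicate 1, 3D replicate 2, 3D-5days replicate 2 or 3D-5days replicate 3 the list had 5 falls each.

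Immediate early genes, which respond within minutes to serum, stretch or cell handling, also depended on the libraries taken. Of 27 members 12 fell (44.4%, against 5.88% of all genes) and 1 rose (3.70%, against 4.52%), with 18 falls against 3D replicates 1 and 2. The list median was -1.43 against 3D replicates 1 and 2 and 0.52 against replicate 3. Fos had 446, 528 and 45.8 CPM in 3D and 94.1, 46.2 and 45.8 CPM in 3D-5days, a difference of -2.46 ± 0.59 (adjusted p = 0.0116) that was 0.43 against 3D replicate 3 alone. Fosb had 214, 259.9 and 9.82 CPM in 3D and 8.12, 3.67 and 2.09 CPM in 3D-5days (-5.14 ± 0.96, adjusted p = 0.00193), and -1.11 against replicate 3 alone (adjusted p = 0.449). Klf2 had 90.8, 116 and 32.7 CPM in 3D and 22.0, 9.10 and 11.9 CPM in 3D-5days (-2.49 ± 0.41, adjusted p = 0.000708). The member called against both sets was Nr4a3, an orphan nuclear receptor, with 36.1, 29.6 and 30.2 CPM in 3D and 6.45, 4.26 and 3.58 CPM in 3D-5days (-2.75 ± 0.65, adjusted p = 0.0101), a call that was lost without 3D-5days replicate 2 or 3. The Fos call was lost without these libraries too, and without 3D replicate 2. Falls in the list numbered 7 without 3D replicate 1, 5 without 3D replicate 2 and 3 without 3D-5days replicate 2 or 3.

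Macrophage, complement, lysosome and cytokine genes were called differently against the 2 sets of 3D libraries, which differ in macrophage markers. Of 23 macrophage markers 0 were called with all 3 libraries of 3D, 2 were lower against replicates 1 and 2, and 19 were higher against replicate 3. Lyz2, the lysozyme of macrophages, had 4522, 3192 and 105 CPM in 3D and 7633, 2151 and 2582 CPM in 3D-5days (0.66 ± 0.82, adjusted p = 0.657). Lysosomal genes had 0 of 35 called, and Ctsb, cathepsin B, stood at 8533, 6853 and 2214 CPM in 3D and at 10403, 4769.8 and 5558 CPM in 3D-5days (0.24 ± 0.34, adjusted p = 0.715). Of 17 complement genes in a list that does not hold C7, C4b was called higher and 0 lower, while 3 were higher without 3D-5days replicate 1, and against 3D replicate 3 alone 8 were higher and 1 lower. Of 32 cytokine, chemokine and prostaglandin genes Cxcl12 rose, and Lif, Ccl5 and Ptgs2 fell. The list had 1 fall without 3D replicate 1 or 2 or 3D-5days replicate 2 or 3, 2 without 3D-5days replicate 1 and 6 without 3D replicate 3, and Ccl5 lost its call when any library other than 3D replicate 3 was left out (adjusted p up to 0.172). Against replicates 1 and 2 of 3D 6 of them fell, and against replicate 3 none fell and 5 rose. The part of the macrophage content in these differences was not tested.

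Whether the same contrast of labels looked alike in flat culture was tested as a difference of differences, 3D-5days minus 3D set against 2D-5days minus 2D. It was called for 3583 of 14036 genes (25.5%), 1725 (12.3%) with the higher value in 3D and 1858 (13.2%) with the lower. The 2D contrast was the larger by number, with 6266 genes called (44.6%), 22.3% of all genes higher and 22.3% lower. Of the 1460 genes called in 3D, 589 were called in the same direction in 2D, 214 in the opposite direction and 657 were not called there, and 607 passed the test of the difference. Of the 433 called against both sets of 3D libraries, 181 had the same direction in 2D, 68 the opposite, and 229 passed the test of the difference.

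The contractile genes Tagln and Acta2 and the growth factor modulator Ctgf fell in both settings. Tagln differed by -2.35 in 3D and by -2.95 in 2D, where its mean went from 1332 to 172 CPM, and the 2 differences were 0.60 ± 0.47 apart (adjusted p = 0.379). Ctgf differed by -1.29 and -0.93, with -0.36 ± 0.41 between them (adjusted p = 0.582). For Acta2 the differences were -1.48 and -2.90, with 1.43 ± 0.56 between them (adjusted p = 0.065). These values do not show that the settings act alike. Of the 30 contractile genes 12 had the higher difference in 3D and 2 the lower, against 12.3% and 13.2% of all genes. In 2D 25 of them fell, against 22.3% of all genes. The mean of Tagln in 3D was 25.8 CPM. Of the 30 TGF-beta and BMP genes 13 rose and 3 fell in 2D, against 22.3% of all genes in each direction. The difference was higher in 3D for 1 and lower for 9, against 12.3% and 13.2% of all genes.

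Several matrix and signalling genes differed between the settings. Fmod fell in 3D and rose in 2D by 1.93, a difference of differences of -4.61 ± 0.45 (adjusted p = 7.59e-07). For Prelp it was -4.16 ± 0.44 (adjusted p = 1.49e-06) and for Smad6 -3.65 ± 0.28 (adjusted p = 2.35e-08). Tgfb3, Dkk3, Itgb5, Smad7 and Id1 also fell in 3D and rose in 2D. Col8a1, Col12a1, Col4a5, Col11a1 and Cthrc1 fell in 3D and were not called in 2D, and each passed the test of the difference. Over the 22 collagen chains the difference of differences was lower in 3D for 12 and higher for 1, against 13.2% and 12.3% of all genes. In 2D 6 chains rose (27.3%) and 2 fell (9.09%), against 22.3% of all genes in each direction.

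Some redox and amino acid synthesis genes rose in 3D and fell in 2D. Gsta4 rose by 2.08 in 3D and fell by 2.04 on the log2 scale in 2D, and the 2 differences were 4.12 ± 0.60 apart (adjusted p = 4.73e-05). Psat1 fell by 3.06 on the log2 scale in 2D, from a mean of 161 to 19.2 CPM, which gave 3.81 ± 0.26 (adjusted p = 3.11e-09), and for Mthfd2 the value was 2.88 ± 0.52 (adjusted p = 0.00039). Apln rose in 3D and fell in 2D, with 4.93 ± 0.84 between the differences (adjusted p = 0.000231), and Gclm and Srxn1 did so with 2.31 ± 0.27 and 2.03 ± 0.23. Of the 25 antioxidant genes 7 had the higher difference in 3D (28%, against 12.3% of all genes) and 4 the lower (16%, against 13.2%). In 2D 8 rose (32%) and 7 fell (28%), against 22.3% of all genes in each direction. Gstm2 rose in both settings, by 1.45 in 2D, with -0.32 ± 0.25 between the differences (adjusted p = 0.373). Of the 32 unfolded protein and integrated stress genes 9 had the higher difference in 3D, against 12.3% of all genes, and 0 the lower. Atf5 rose by 0.68 in 2D (0.49 ± 0.39 between the differences, adjusted p = 0.382). Of the 20 transfer RNA synthetases, the list added after values were seen, 19 had the higher difference in 3D, against 12.3% of all genes. In 3D itself 8 of them rose and 1 fell. In 2D 16 of them fell, against 22.3% of all genes. Ribosomal protein genes had the higher difference in 3D for 26 of 32, against 12.3% of all genes. Matn4, a matrix protein, rose in both settings, by 1.18 in 3D and by 5.31 in 2D, and Art4, a surface protein of the ADP-ribosyltransferase family, fell by 1.44 on the log2 scale in 3D and rose by 3.02 in 2D.

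In flat culture 22.3% of all genes rose and 22.3% fell, against 4.52% and 5.88% in 3D, and counts of proliferation, lysosome and cholesterol genes stand against these shares. Counts by the test of the difference stand against 12.3% of all genes higher in 3D and 13.2% lower. All 42 cell cycle genes fell in 2D, with a median of -2.92, and 21 had a difference that was higher in 3D than in 2D. Lysosomal genes rose in 2D for 26 of 35 against 0 in 3D, and by the test of the difference 20 were lower in 3D. Cholesterol synthesis genes rose in 2D for 24 of 26 against 2 in 3D, with 10 passing as lower in 3D and 1 as higher. Resting fibroblast markers rose in 2D for 19 of 29 against 1 in 3D, with 13 lower in 3D by the test of the difference, among them Tcf21 (-3.26 ± 0.46, adjusted p = 3.2e-05).

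**Figure D4:**
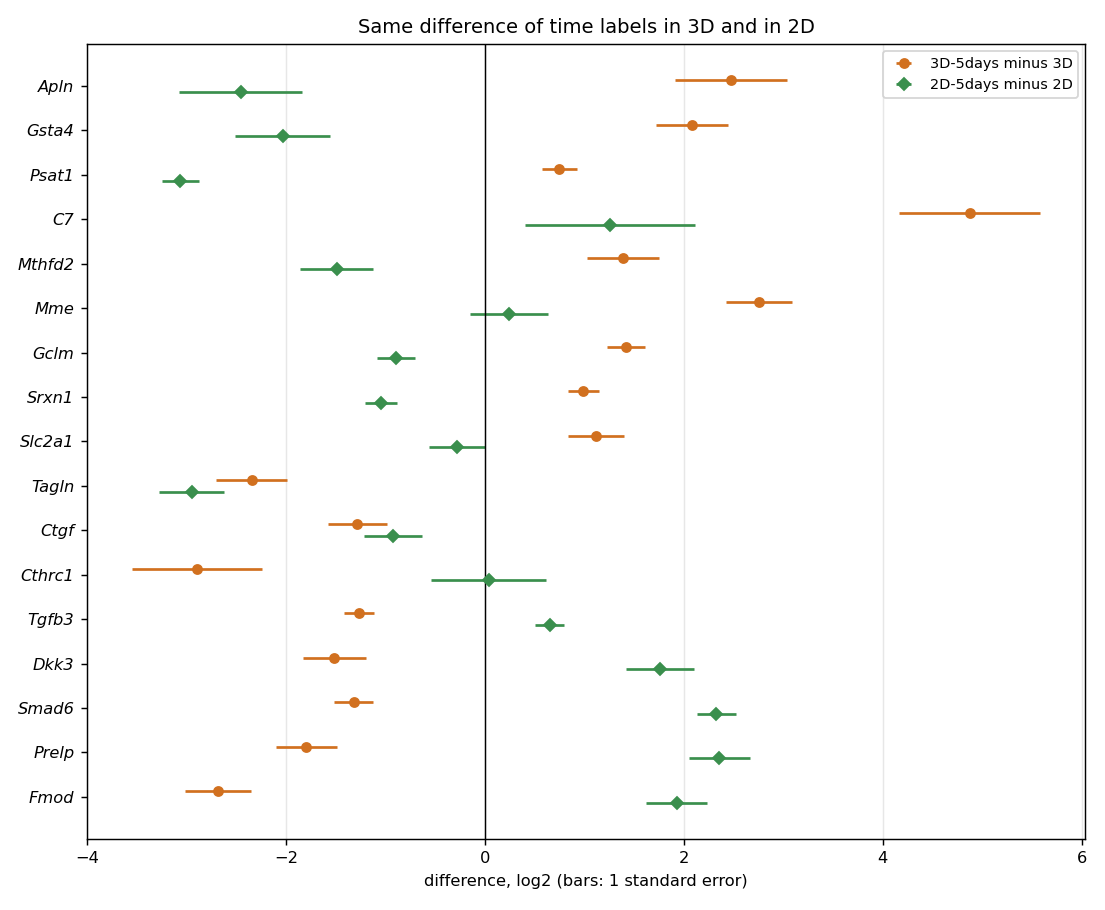
Differences on the log2 scale for 17 genes between the 5-day group and the group with no stated time, in 3D (orange circles) and in 2D (green diamonds), with bars of 1 SE. Gsta4, Psat1 and Apln lie above 0 in 3D and below 0 in 2D, Fmod and Smad6 the reverse, and Tagln and Ctgf lie below 0 in both.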

How the data were processed

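The deposited file holds raw counts for each gene symbol, unnormalised, in 24421 gene lines; 5 summary lines of the counting program were left out. Per the submitters' processing notes TopHat, HTSeq, Bowtie and MACS2 and the mm10 build were used; version, role, annotation, strand: not given in the sources used here. Reads without molecular identifiers are not independent molecules. Differences were fitted with edgeR 4.0.16 (limma 3.58.1, R 4.3.3): filterByExpr, TMM factors, robust quasi-likelihood over all 29 libraries with 1 mean per group, and Benjamini-Hochberg adjustment over the 14036 genes tested. CPM uses effective library totals, and the SE is the log2 difference divided by the root of F. The fit was tested on simulated counts drawn independently for each library, with no library set apart. That test does not cover the library split seen here. Members and lists were chosen with earlier results of these data known; 2 lists were added after values were seen. Named genes were the 10 largest rises and falls without overlap and with mean log2 CPM from 3 upward, the 10 with the largest smaller change against both sets of 3D libraries, up to 4 called members of each list (the 2 most abundant where none was called), a panel of 21 fibroblast genes, and the 6 largest differences from 2D in each direction; unnamed models, pseudogenes and sex-linked Xist and Y genes were not eligible, and the text gives part of them. Further called members that complete a list count were named after their values were seen. Alternatives were other scalings and filters, DESeq2 1.42.0, each library left out, a replicate block, the 6 libraries alone, summed alike libraries and a 2-fold minimum. The 2 ATAC-seq samples were not analysed here.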

Additional observations from a re-analysis of the deposited data

Results flagged for a closer look

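The difference between the group labelled 5 days and the group with no stated time was not the same in 3D and in 2D for 3583 genes by edgeR's test of the difference itself (adjusted p under 0.05). The genes named in the report that passed it are given here by the log2 difference in 3D minus that in 2D, with no explanation weighed. Among redox, metabolic and secreted genes with the higher value in 3D it was 4.93 for Apln, 4.12 for Gsta4, 3.81 for Psat1, 3.61 for C7, 2.88 for Mthfd2, 2.52 for Csf2rb, 2.51 for Mme, 2.31 for Gclm, 2.10 for Shmt2, 2.03 for Srxn1, 2.03 for Txnrd1 and 1.75 for Asns. Smaller values of the same sign were 1.58 for Cars, 1.54 for Taldo1, 1.44 for Car12, 1.39 for Slc2a1, 1.30 for Pgd, 1.22 for Tgfbi, 1.06 for Pkm, 1.0 for Mars, 0.84 for Atf4, 0.70 for Axl, 0.65 for Rps9, 0.59 for Rpl32, 0.44 for Dars and 0.37 for Tkt.

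Among matrix genes with the lower value in 3D it was -4.61 for Fmod, -4.16 for Prelp, -4.13 for Matn4, -3.52 for Ogn, -3.01 for Col8a1, -2.93 for Cthrc1, -2.67 for Col12a1, -1.96 for Col11a1, -1.78 for Col4a5, -1.36 for Col4a2, -1.11 for Mmp2 and -1.05 for Col4a1. Among adhesion, contractile and mechanosensing genes it was -2.37 for Itgb5, -1.65 for Fhl2, -1.36 for Piezo2 and -1.11 for Tns1. Among signalling genes it was -3.65 for Smad6, -3.28 for Dkk3, -2.89 for Id1, -2.83 for Igfbp2, -2.33 for Sema5a, -2.26 for Heyl, -2.15 for Wnt11, -2.03 for Smad7, -1.92 for Tgfb3, -1.90 for Lif, -1.44 for Fzd7 and -0.82 for Pdgfra. Among immediate early genes it was -4.07 for Fosb, -3.77 for Fos, -2.75 for Klf2 and -2.60 for Nr4a3. The 3D part of this list depended on the 3D libraries taken, with a median of -1.43 against replicates 1 and 2 and 0.52 against replicate 3 alone. The remaining values were -4.46 for Art4, -4.05 for Abca8a, -3.37 for Scg2, -3.26 for Tcf21, -2.69 for Hspb7, -2.40 for Hsd17b7 and -1.63 for Lrrn2. Among epicardial and mesothelial markers it was -4.55 for Lrrn4 and -2.98 for Sema3d. The fitted values of -9.65 for Upk3b and -5.04 for Hey2 are no measured size, since both genes were at 0 in all 3 libraries of 3D-5days.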

How the results depend on the processing

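The count of genes between 3D-5days and 3D depended most on which libraries set the spread. It was 26 higher and 38 lower with only the 6 libraries fitted, and 9 and 17 when a replicate block was added to it. Summing the most alike libraries gave 157 and 282, a minimum of 2-fold 136 and 337, and library totals alone 420 higher. Leaving out 1 library gave between 261 and 1001 genes higher and between 302 and 1409 lower, with the lowest counts without 3D-5days replicate 3 and the highest without 3D-5days replicate 1. DESeq2 gave 844 higher and 1050 lower. For the difference of differences, the alternatives gave between 1308 and 1865 genes higher and between 1428 and 2022 lower, with 1577 and 1443 in the fit of 12 libraries with the replicate block.

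The replicate numbers were not taken as pairs. Deviations of same-numbered libraries from their group means correlated at 0.437, -0.257 and 0.250 over genes, and 3D replicates 2 and 3 correlated best with another number. Of 113 tested genes among those that the text names, 106 were called, and in the fit of 6 libraries 85 of these lost the call, or 94 with the block. With 1 library left out between 9 and 34 lost it. Against 3D replicate 3 alone the sign changed for Col1a1 (0.19), Fos (0.43) and Mki67 (0.96). Lyz2 and Ctsb, which were not called, ranged from -0.14 to 1.31 and from -0.18 to 0.60 with 1 library left out, and Ctsb was -0.15 against 3D replicates 1 and 2. Under the other scalings and filters and DESeq2 none of the 113 genes changed sign, while 12 lost the call with no filter, 4 with library totals alone and 2 with RLE size factors. Depth was lower in 3D-5days, and differences of genes near 1 CPM there, such as Igfbp2 and Wnt11, are the least precise.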
